A study of Mus musculus with 16 samples.

Results

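The genes of interleukin-6 (IL-6) and oncostatin M signalling were followed in allergen-challenged mouse lungs after exposure to cigarette smoke or filtered air before birth. The members were the ligand genes Il6, Osm, Lif and Il11, the receptor genes Il6ra, Il6st and Osmr, the transcription factor gene Stat3 and the feedback inhibitor gene Socs3. All probe sets whose array annotation gave exactly 1 symbol among these 9 genes, or a synonym of it, were taken, which gave 21 of 45037 probe sets. Il6, Osm and Il11 had 1 probe set each, Il6ra and Lif 2 each, Osmr and Socs3 3 each, and Il6st and Stat3 4 each.

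The lungs came from 16 Balb/c mice killed at 23 weeks of age, with the left lung of 1 mouse on each Affymetrix Mouse Genome 430 2.0 array and 4 mice in each of 4 groups. Females (EF) and males (EM) whose mothers had breathed second-hand smoke (SHS) in pregnancy were compared with females (AF) and males (AM) whose mothers had breathed filtered air. The SHS was sidestream smoke with 10 mg/m3 of particles, breathed, like the filtered air, for 5 h on each of the 7 days of the week. All 4 groups, the air controls included, were then sensitized as adults to ovalbumin (OVA), an egg allergen, by injection at 19 and 21 weeks and inhaled OVA aerosol in weeks 22 and 23, so every difference below is one between 2 kinds of allergen-challenged lung. The sources used here do not say which mice shared a litter or dam, so p-values measure only the spread between these mice, some of which may be siblings. Values are log2 intensities, in which a difference of 1 is a doubling, and no test set the level of females against that of males.

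Cytokines of this family signal through a shared receptor chain, gp130, which Il6st encodes. IL-6 reaches gp130 through its own receptor Il6ra, oncostatin M through gp130 paired with Osmr, leukaemia inhibitory factor (Lif) through gp130 paired with Lifr, and IL-11 through a receptor of its own. The bound receptors activate Janus kinases (JAKs), which phosphorylate STAT3, and STAT3 switches on acute-phase genes, growth genes and its own inhibitor, Socs3, which binds gp130 and shuts the signal down. In the lung the family is known for its part in neutrophilic inflammation, epithelial repair and matrix remodelling.

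Across the pathway, the ligand gene Il6 and the feedback gene Socs3 were called higher after SHS in both sexes, Socs3 in females on 1 of its 3 probe sets. The other ligands and the receptor chains Il6ra and Il6st passed the test in neither. In females 2 of the 21 probe sets were called higher (1 of Il6 and 1 of Socs3) and none lower, at an adjusted p under 0.05 in limma, beside 2.36% of all probe sets called higher and 0.517% lower in that comparison. In males 6 of 21 were called higher (1 of Il6, 3 of Socs3, 1 of Stat3 and 1 of Osmr) and none lower, beside 3.07% of all probe sets called higher and 2.11% lower. In the effect averaged over the sexes 4 of 21 were called, Il6 and all 3 probe sets of Socs3, each higher, beside 6.65% of all probe sets called higher and 3.67% lower. At an unadjusted p under 0.05 there were 5 of the 21 in females, beside 16.0% of all probe sets, and 9 in males, beside 20.2%. All SHS arrays lay above all air arrays for 1 of the 21 in females and 8 in males, beside 5.61% and 7.87% of all probe sets, and below them for 1 in females and none in males, beside 2.64% and 7.51%. With 1 probe set per gene, the 9 genes had a median log2 difference of 0.06 in females and 0.23 in males, where the medians over all 18193 genes were 0.00 and 0.008.

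1 array stood apart. SHS female replicate 4 correlated across probe sets at 0.9951 on average with the air females and at 0.9924 with the other SHS females, whereas the other 15 arrays correlated more closely with their own group. Without it, 4 in place of 2 member probe sets were called in females. None was called in females without SHS female 1, 2 or 3 or air female 2, or with the 8 female arrays alone, where limma gave 5 at an unadjusted p under 0.05. The shares of all probe sets called in these fits are not given here, so these counts cannot be read as particular to the members. The alveolar type 2 cell markers that define lung tissue were bright on every array, with a mean log2 level over 6 genes of 13.58 to 14.01.

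Il6 (chromosome 5, 30013114 to 30019975 in the mouse assembly GRCm38.p6), an inflammatory cytokine made by macrophages, fibroblasts and epithelium, moved furthest of the 9 genes. Its probe set 1450297_at read 4.88, 4.31, 4.84 and 5.27 on the air female arrays and 6.07, 6.70, 6.10 and 5.02 on the SHS female arrays, replicates 1 to 4 in each group. SHS females 1 to 3 lay above every air female, and SHS female 4 lay among them. In males the air arrays read 6.12, 6.31, 5.54 and 5.84 and the SHS arrays 7.56, 7.68, 7.70 and 7.58. All 4 SHS males lay more than 1 log2 unit above the highest air male, and they spanned a range far narrower than the air males did. The Il6 difference was 1.15 ± 0.26 (SE, n = 4 and 4, adjusted p = 0.0212 in limma), 2.22-fold, in females and 1.68 ± 0.26 (adjusted p = 0.00137), 3.19-fold, in males. Averaged over the sexes Il6 was 2.66-fold higher (1.41 ± 0.18, adjusted p = 8.73e-05), and the female and male effects did not differ by a called amount (-0.53 ± 0.37, adjusted p = 0.743, 95% interval -1.30 to 0.25). The probe set was dim, with air females between 4.31 and 5.27 and a mean over all arrays of 6.095, under the 40th percentile of all probe sets (6.377). No detection calls were used, so the folds hold for the intensity and the female air level may lie at background. The female call of Il6 was lost without any of several single arrays. The adjusted p was 0.0679, 0.0748 and 0.0655 without SHS female 1, 2 or 3 and 0.0841 and 0.0592 without air female 2 or 3, and 0.000244, with a difference of 1.47, without SHS female 4. A fit of the 8 female arrays alone gave an adjusted p of 0.102. The male call was kept in all 16 fits that left out an array, with a highest adjusted p of 0.00725. Lungs were measured whole, so more Il6 RNA per cell and more cells that make it cannot be told apart.

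The stretch before the Il6 start site is printed because Il6 is the member that moved most and its RefSeq promoter window lies before the annotated gene. The 250 bases run from chr5:30012864-30013113 on the plus strand (GRCm38.p6, RefSeq), with 2 matches in capitals.

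Il6: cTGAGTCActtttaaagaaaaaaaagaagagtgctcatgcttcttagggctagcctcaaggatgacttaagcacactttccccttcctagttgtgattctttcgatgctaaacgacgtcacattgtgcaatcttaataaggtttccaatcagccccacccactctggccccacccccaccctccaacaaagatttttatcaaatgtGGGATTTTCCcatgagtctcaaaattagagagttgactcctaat

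The capitals near the 5′ end mark TGAGTCA, a match to the AP-1 motif TGANTCA (30012865 to 30012871, beginning 249 bases before the start site). The capitals near the 3′ end mark GGGATTTTCC, a match to the NF-kB motif (GGG, any 2 bases, TTTCC; 30013070 to 30013079, beginning 44 bases before it). AP-1 and NF-kB are transcription factors of inflammatory signalling. Both strands were searched, and the motifs do not overlap here. Of 32851 windows of the same length, 6.75% held TGANTCA, 1.41% held the NF-kB motif and 7.02% held the STAT motif TTCNNNGAA, which has no match in these 250 bases. A match describes letters in the reference and says nothing of binding in these lungs. The AP-1 motif also had a match in windows of Il11 and Lif, which were not called. The window given for Socs3 lies inside the annotated span of that gene and is not printed. It holds a match to the STAT motif, TTCTTAGAA, beginning 154 bases before its start site.

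Socs3 (chromosome 11, 117966079 to 117970336), which encodes the inhibitor of the gp130 receptor and of its JAKs, was measured by 3 probe sets that all gave higher means after SHS in both sexes. The suffix x in 1455899_x_at and 1456212_x_at marks probes that may also bind other transcripts, while 1416576_at carries no such mark. On 1416576_at the air females read 8.82, 8.50, 8.45 and 8.90 and the SHS females 8.92, 9.13, 9.01 and 8.84, groups that overlapped. The air males read 8.40, 8.26, 8.18 and 8.07 and the SHS males 9.13, 8.96, 9.31 and 9.20 on this probe set, with every SHS male above every air male. Its difference was 0.31 ± 0.11 in females, which was not called (adjusted p = 0.149, 95% interval 0.08 to 0.53), and 0.92 ± 0.11 in males (adjusted p = 0.000193), which ranked 27 of 45037 by p. The female difference of 1416576_at was called in none of the 16 fits that left out an array and under no other alternative.

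On 1455899_x_at the air females read 9.07, 9.18, 9.36 and 9.43 and the SHS females 9.73, 9.98, 9.72 and 9.46. Every SHS female lay above every air female there, SHS female 4 by a small margin. The males read 10.02, 10.04, 9.97 and 9.99 after air and 10.69, 10.69, 11.00 and 10.68 after SHS, again with no overlap. The differences of this probe set were 0.46 ± 0.11 in females (adjusted p = 0.0219) and 0.76 ± 0.11 in males (adjusted p = 0.000623). The third probe set, 1456212_x_at, differed by 0.39 in females (adjusted p = 0.0556, not called) and by 0.69 in males (adjusted p = 0.00119). In the averaged effect the 3 probe sets were 1.53-fold, 1.53-fold and 1.45-fold higher, with adjusted p of 5.72e-05, 4.50e-05 and 0.000149. The male calls of all 3 were kept whichever array was left out. In females the call of 1455899_x_at was lost without air female 1 or 2 (adjusted p = 0.061 and 0.0746) or without SHS female 1, 2 or 3 (0.0644, 0.0793 and 0.0581), and in the fit of 8 arrays alone (0.0971). The call of 1456212_x_at was gained without SHS female 4 (0.0102), air female 4 (0.0457) or SHS male 3 (0.0466), with dim probe sets left out (0.0343) and with a trended robust prior (0.032).

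The male differences of Socs3 were larger than the female ones by 0.62 ± 0.15 on 1416576_at (adjusted p = 0.383, rank 85 of 45037 by p) and by 0.30 on both of the others (adjusted p = 0.626 for 1455899_x_at and 0.619 for 1456212_x_at). No such difference between the sexes was called after adjustment, for Socs3 or for any probe set of the array. At an unadjusted p under 0.05 there were 4 member probe sets of 21, beside 8.24% of all 45037. Probe sets of the same gene could read unlike between the sexes. For Il6st, 1421239_at had means of 10.10 in air females and 6.84 in air males, while 1452843_at had 11.78 and 11.75. For any gene here, a difference of effects between the sexes cannot be told apart from one in how the probes read.

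**Figure D1:**
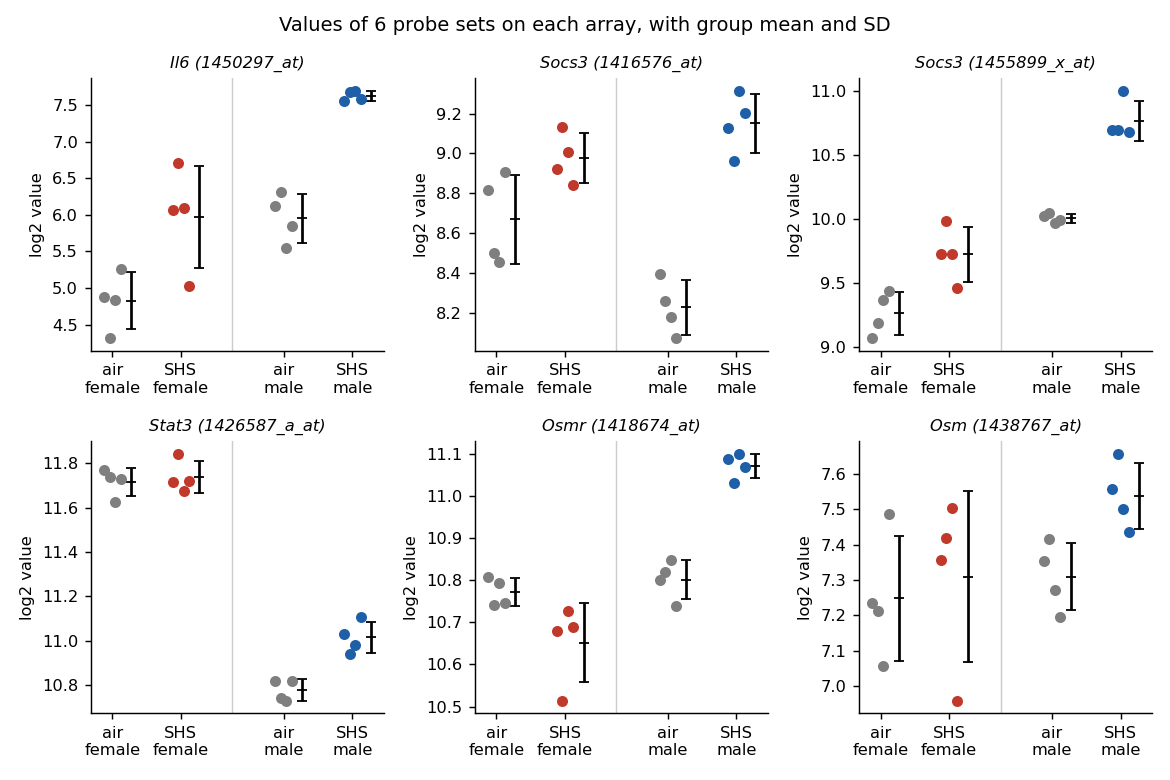
Log2 values (vertical axis) of 6 probe sets on each of the 16 arrays, by exposure and sex (horizontal axis); points are mice and the bar beside each group is its mean ± SD (n = 4). For Il6 and Socs3 the 4 SHS males sit above all air males, for Osmr the SHS females sit below and the SHS males above their air controls, and the SHS female at 5.02 for Il6 lies among the air females.

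Il6 and Socs3 went together on single arrays as well as in the group means. SHS female 2 had the highest value of both Il6 and 1455899_x_at among the 8 females, and SHS female 4 the lowest of both among the SHS females. Among the SHS males, replicate 3 had the highest value of both, though its Il6 was barely above that of the next array. After the mean of each group was subtracted, Il6 correlated over the 16 arrays at 0.74 with Socs3 and at 0.75 with Osm, a ligand gene that was not called. SHS female 4, the array that stood apart, weighs heavily in both correlations, as does SHS female 2 in that with Socs3. The pairs of values are a description of 16 arrays, and arrays of a group share their exposure.

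**Figure D2:**
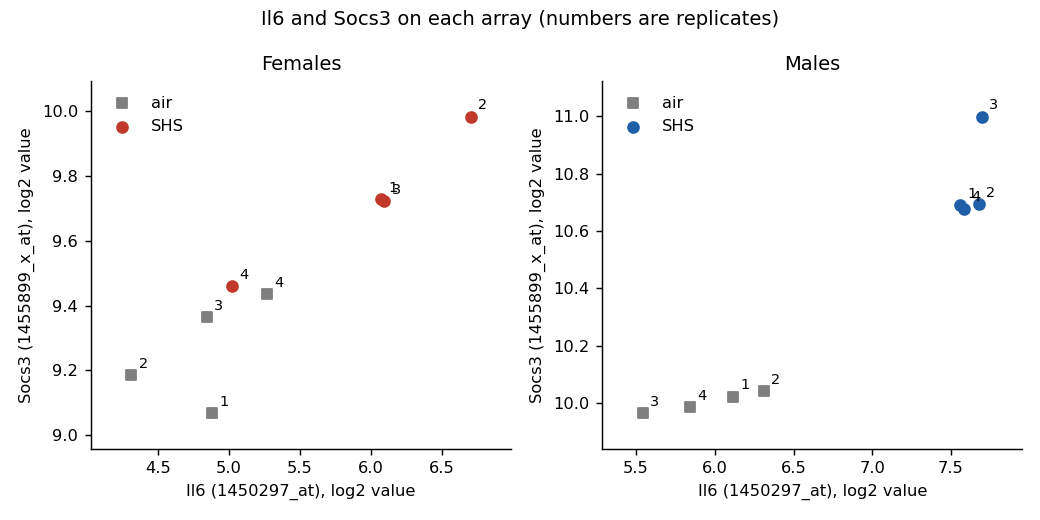
Log2 value of Socs3 (1455899_x_at, vertical axis) against that of Il6 (1450297_at, horizontal axis) for each array, females and males in separate panels; squares are air, circles are SHS, and numbers are replicates. SHS female 4 (5.02 and 9.46) lies beside air female 4 (5.27 and 9.43), and the other SHS arrays lie above and to the right of the air arrays of their sex.

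The other ligands did not pass the test in either sex. Osm (chromosome 11, 4236785 to 4241026), the oncostatin M gene of myeloid cells, read 7.23, 7.21, 7.06 and 7.49 in air females and 7.36, 7.42, 7.50 and 6.96 in SHS females. SHS female 4 had the lowest Osm value of the 8 females, and the groups overlapped (0.06 ± 0.11, adjusted p = 0.848). In males Osm read 7.35, 7.42, 7.27 and 7.20 after air and 7.56, 7.66, 7.50 and 7.44 after SHS, with every SHS male above every air male by a small margin. The male difference was 0.23 ± 0.11 (adjusted p = 0.247, 95% interval 0.00 to 0.46). Averaged over the sexes Osm was at 0.14 (adjusted p = 0.27), and at 0.20 (adjusted p = 0.0371) without SHS female 4.

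Lif (chromosome 11, 4257568 to 4272514), the next gene listed here along that chromosome, encodes a cytokine that holds stem cells undifferentiated and acts on epithelium. Its probe set 1421207_at differed by 0.06 in females and 0.08 in males, with adjusted p of 0.846 and 0.706, and 1450160_at by -0.05 and 0.13, with adjusted p of 0.9 and 0.575. Il11 (chromosome 7, 4772373 to 4782907), a cytokine of fibroblasts known in fibrosis, differed by 0.06 in females (adjusted p = 0.869, 95% interval -0.19 to 0.30) and by 0.21 in males (adjusted p = 0.347, interval -0.04 to 0.45). Both Lif probe sets were dim, with means of 6.36 and 5.07 over all arrays, under the 40th percentile of all probe sets (6.377), so these values may say little of the transcript.

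Of the receptor genes, Il6ra (chromosome 3, 89869324 to 89913196), the chain that binds IL-6 itself, had lower means after SHS on both probe sets in both sexes and was not called. The differences were -0.06 in females and -0.13 in males on 1452416_at (adjusted p = 0.898 and 0.69) and -0.13 and -0.05 on 1422270_a_at (adjusted p = 0.519 and 0.818). Il6st (chromosome 13, 112464070 to 112506860), the shared gp130 chain, had higher means after SHS on all 4 probe sets in both sexes, by 0.06 to 0.22 in females and by 0.08 to 0.12 in males, and none was called. Its largest difference was that of 1437303_at in females, 0.22 ± 0.08 (adjusted p = 0.174, 95% interval 0.05 to 0.39). That probe set read 10.99, 10.84, 10.79 and 10.67 in air females and 11.17, 11.12, 11.02 and 10.85 in SHS females. Again SHS female 4 was the lowest of its group, and without it the difference of 1437303_at was 0.28 (adjusted p = 0.0373). In the averaged effect that probe set was at 0.17 (adjusted p = 0.069) and was called without SHS female 4 (0.0175) or air female 1 (0.0328), with dim probe sets left out (0.0403) and with a trended robust prior (0.0391).

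Osmr (chromosome 15, 6813568 to 6874968), the chain that gives gp130 its response to oncostatin M, had effects of opposite sign in the sexes on its brightest probe set. On 1418674_at the air females read 10.81, 10.74, 10.79 and 10.74 and the SHS females 10.68, 10.51, 10.73 and 10.69, so that every SHS female lay below every air female. The air males read 10.80, 10.82, 10.85 and 10.74 and the SHS males 11.09, 11.03, 11.10 and 11.07, so that every SHS male lay above every air male. The difference was 0.27 ± 0.06 in males, 1.21-fold (adjusted p = 0.0153), and -0.12 ± 0.06 in females, which was not called (adjusted p = 0.347, 95% interval -0.25 to 0.01). The female effect was 0.39 below the male one (-0.39 ± 0.09), which ranked 28 of 45037 by p and did not pass the adjustment (adjusted p = 0.383). As for Socs3, this cannot be told apart from a difference in how the probes read on female and male arrays. The male call was lost without SHS male 3 (0.26, adjusted p = 0.0535).

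The probe set 1418675_at of Osmr gave the same signs, -0.13 in females (adjusted p = 0.628) and 0.32 in males (adjusted p = 0.104), with a difference between the sexes of -0.46 ± 0.16 (adjusted p = 0.493). Its male means were dim, 6.15 after SHS and 5.82 after air, under the 40th percentile of all probe sets (6.377). The male difference, and with it the difference between the sexes, may therefore say little of the transcript. On 1418675_at the groups overlapped in both sexes, and without SHS male 4 its male difference of 0.43 was called (adjusted p = 0.0278). The dim probe set 1459217_at, with a mean of 4.45 over all arrays, gave 0.01 and -0.14 and was not called (adjusted p = 0.979 and 0.455).

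Stat3 (chromosome 11, 100886806 to 100939594), the transcription factor downstream of all these receptors, was called higher in SHS males on its brightest probe set, by a small amount. On 1426587_a_at the air males read 10.82, 10.74, 10.73 and 10.82 and the SHS males 11.03, 10.94, 10.98 and 11.11, with no overlap, a difference of 0.24 ± 0.06, 1.18-fold (adjusted p = 0.0368). On 1460700_at the air males read 10.35, 10.35, 10.28 and 10.43 and the SHS males 10.60, 10.61, 10.61 and 10.62, again with no overlap, a difference of 0.26 ± 0.08 that was not called (adjusted p = 0.0709). In females the same probe sets differed by 0.02 and 0.04 (adjusted p = 0.908 and 0.865), with overlapping groups. The other 2 probe sets of Stat3 differed by -0.05 and -0.04 in females and 0.12 and 0.09 in males, with no call. The call of 1426587_a_at in males was lost in 8 of the 16 fits that left out an array. Without air male 1, 2, 3 or 4 its adjusted p was 0.064, 0.0782, 0.102 and 0.0514, without SHS male 1, 3 or 4 it was 0.0929, 0.0761 and 0.0897, and without SHS female 1 it was 0.05, and with the 8 male arrays alone it was 0.051. The call of 1460700_at in males was gained without air female 1 (0.0368) or 3 (0.0426), with quantile normalization (0.0384) and with the 8 male arrays alone (0.0286), a trended robust prior (0.0412) and dim probe sets left out (0.0425). The difference between the sexes for 1426587_a_at was -0.21 ± 0.09 (adjusted p = 0.567).

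**Figure D3:**
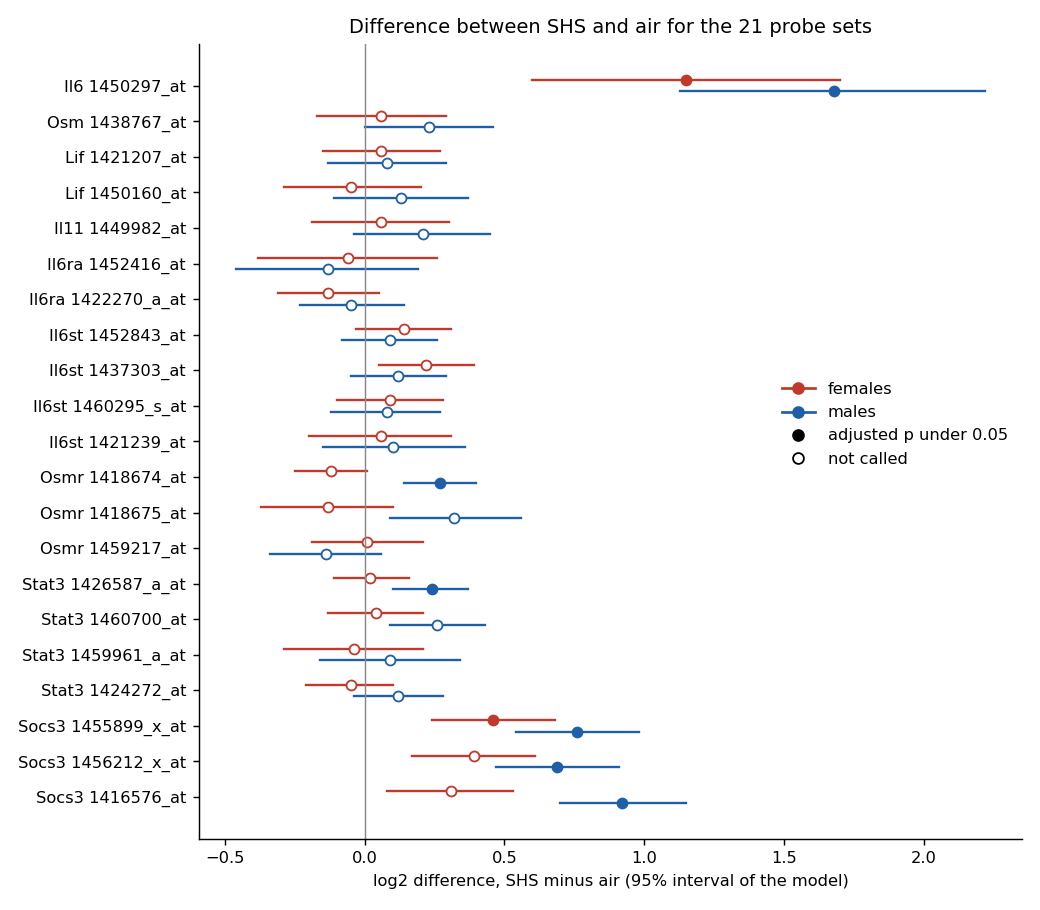
Log2 difference, SHS minus air (horizontal axis), of each of the 21 probe sets in females (red) and males (blue), with the model's 95% interval; filled points have an adjusted p under 0.05 over 45037 probe sets. Il6 and the 3 Socs3 probe sets lie to the right in both sexes, with Il6 at 1.15 and 1.68, while the Lif, Il11, Il6ra and Il6st probe sets lie within 0.25 of zero.

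The other genes of the pathway were taken from lists drawn up with earlier results of these data known, so their counts describe them and lend the members no support. The lists held 61 genes, of which 54 were analysed here, each represented by its brightest probe set. In females 9 of the 54 were called higher and none lower, beside 3.29% of all 18193 genes called higher, and in males 12 higher and none lower, beside 4.17%, where 0.676% and 2.47% of all genes were called lower. In the averaged effect 15 were called higher and 1 lower, beside 9.2% and 4.32% of all genes. Their median difference was 0.15 in females and 0.10 in males.

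Among the other ligands listed, which use gp130 or, for Il31, Osmr, all 4 measured genes (Ebi3, Clcf1, Ctf1 and Il31) stayed below the threshold in both sexes. Among the other receptor chains and the enzymes that shed Il6ra from the cell surface, none of 6 was called in females or males. In this list Lifr, the partner of gp130 for Lif, was at -0.28 ± 0.10 in females (adjusted p = 0.139) and -0.25 ± 0.10 in males (adjusted p = 0.148), and was called lower in the averaged effect (-0.26, adjusted p = 0.0181). Without SHS female 4 Lifr was called lower in females too (-0.39, adjusted p = 0.00618). Il31ra, the chain that pairs with Osmr to bind IL-31, was called higher in the averaged effect (0.49, adjusted p = 0.017) and was named after its value was seen. The JAKs and the other STATs gave no call in 6 genes, with Jak1 at 0.05 and 0.06 and Jak2 at 0.18 and 0.13 in females and males (lowest adjusted p 0.242).

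The other brakes of JAK-STAT signalling held 3 called genes of 9 in females and 2 in males, each higher, beside 3.29% and 4.17% of all genes called higher. Cish, an early STAT5 target that inhibits cytokine receptors, rose by 0.65 ± 0.12 in females (adjusted p = 0.00564) and 0.62 ± 0.12 in males (adjusted p = 0.00568). Socs1, which inhibits JAKs directly, rose by 0.61 ± 0.13 (adjusted p = 0.0156) and 0.68 ± 0.13 (adjusted p = 0.00558). Ptpn2, a phosphatase of JAKs and STATs, rose by 0.37 ± 0.09 in females (adjusted p = 0.0281) and was at 0.29 ± 0.09 in males (adjusted p = 0.0643). For Cish and Socs1 every SHS array lay above every air array in both sexes. Cish was called in all 16 fits that left out an array. The female call of Socs1 was lost without air female 2 or 3 (adjusted p = 0.0567 and 0.0553) or SHS female 1 or 2 (0.0665 and 0.0623), and that of Ptpn2 without air female 2 (0.105) or SHS female 1, 2 or 3 (0.083, 0.0967 and 0.0868). Without SHS female 4 or air female 2, Ptpn2 was called in males (0.0283 and 0.0498), as it was with the 8 male arrays alone (0.0319), dim probe sets left out (0.04) and a trended robust prior (0.0368). With the 8 female arrays alone the female adjusted p of Socs1 was 0.0584 and that of Ptpn2 was 0.127, and with quantile normalization that of Ptpn2 was 0.0681. The other brakes were between -0.13 and 0.19, and Socs2, the relative of Socs3 that limits growth hormone signalling, was at -0.06 and 0.16.

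Of 29 measured target genes of STAT3, IL-6 or oncostatin M, 6 were called higher in females and 10 in males, and none lower. Beside them, 3.29% and 4.17% of all genes were called higher. The targets had a median of 0.21 in females and 0.23 in males, where the medians over all genes were 0.00 and 0.008. Like the other lists, this one was drawn up with earlier results known. Timp1, an inhibitor of metalloproteinases that oncostatin M induces, moved most, by 2.13 ± 0.23 in females (adjusted p = 0.000187) and 2.43 ± 0.23 in males (adjusted p = 4.19e-05). The acute-phase genes Saa3 and Serpina3n rose by 1.89 (adjusted p = 0.00391) and 1.48 (adjusted p = 1.72e-05) in females and by 2.38 (adjusted p = 0.000623) and 1.65 (adjusted p = 1.41e-06) in males. Steap4, a metalloreductase induced in inflammation, rose by 0.67 ± 0.17 in females (adjusted p = 0.0399) and 0.96 ± 0.17 in males (adjusted p = 0.00338). Its female call was kept in 5 of the 16 fits that left out an array, with adjusted p up to 0.141, and its male call in 16. With the 8 female arrays alone its female adjusted p was 0.16, and with quantile normalization it was 0.0504.

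Reg3g, an antimicrobial lectin of airway and gut epithelium, rose by 1.76 ± 0.44 in males (adjusted p = 0.0266) and was at 0.21 ± 0.44 in females (adjusted p = 0.874), and the sexes did not differ by a called amount (-1.55, adjusted p = 0.548). Its male call was kept in 10 of 16 fits, and without air male 1, 3 or 4 its adjusted p was 0.091, 0.0644 and 0.0685, without SHS male 1, 2 or 3 it was 0.0645, 0.0596 and 0.0718, and with a trended robust prior it was 0.0704. The remaining called targets were named after their values were seen. They were Myc (0.67, adjusted p = 0.0045) and Bcl3 (0.43, adjusted p = 0.048) in females, and Ccl2, Lrg1, Lcn2, Bcl3 and Pim1 in males at 1.06, 0.94, 0.87, 0.60 and 0.57 (adjusted p = 0.00793, 0.00177, 0.0029, 0.00468 and 0.0101). In the sex without a call, Myc was at 0.39 in males (adjusted p = 0.0637), and Ccl2, Lcn2, Pim1 and Lrg1 were at 0.72, 0.56, 0.41 and 0.25 in females (adjusted p = 0.0801, 0.0546, 0.0742 and 0.454). All 6 of these genes were called higher in the averaged effect. The female call of Bcl3 was kept in 4 of 16 fits and lost with quantile normalization (0.0802), median centring (0.0521) and the 8 female arrays alone (0.127), and the calls of the other genes were kept in all 16. Classical targets that were not called in either sex included Fos (0.19 and -0.21), Cebpd (-0.19 and 0.23), Cebpb (0.00 and 0.14) and Mcl1 (-0.07 and -0.04). The fibrinogen genes Fga, Fgb and Fgg, acute-phase genes of the liver, were not called in females or males, and Fga was called higher in the averaged effect (0.29, adjusted p = 0.0292). Their probe sets were dim, with means of 3.71, 4.87 and 4.25 over all arrays, under the 40th percentile of all probe sets (6.377). These values may say little of the transcripts.

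**Figure D4:**
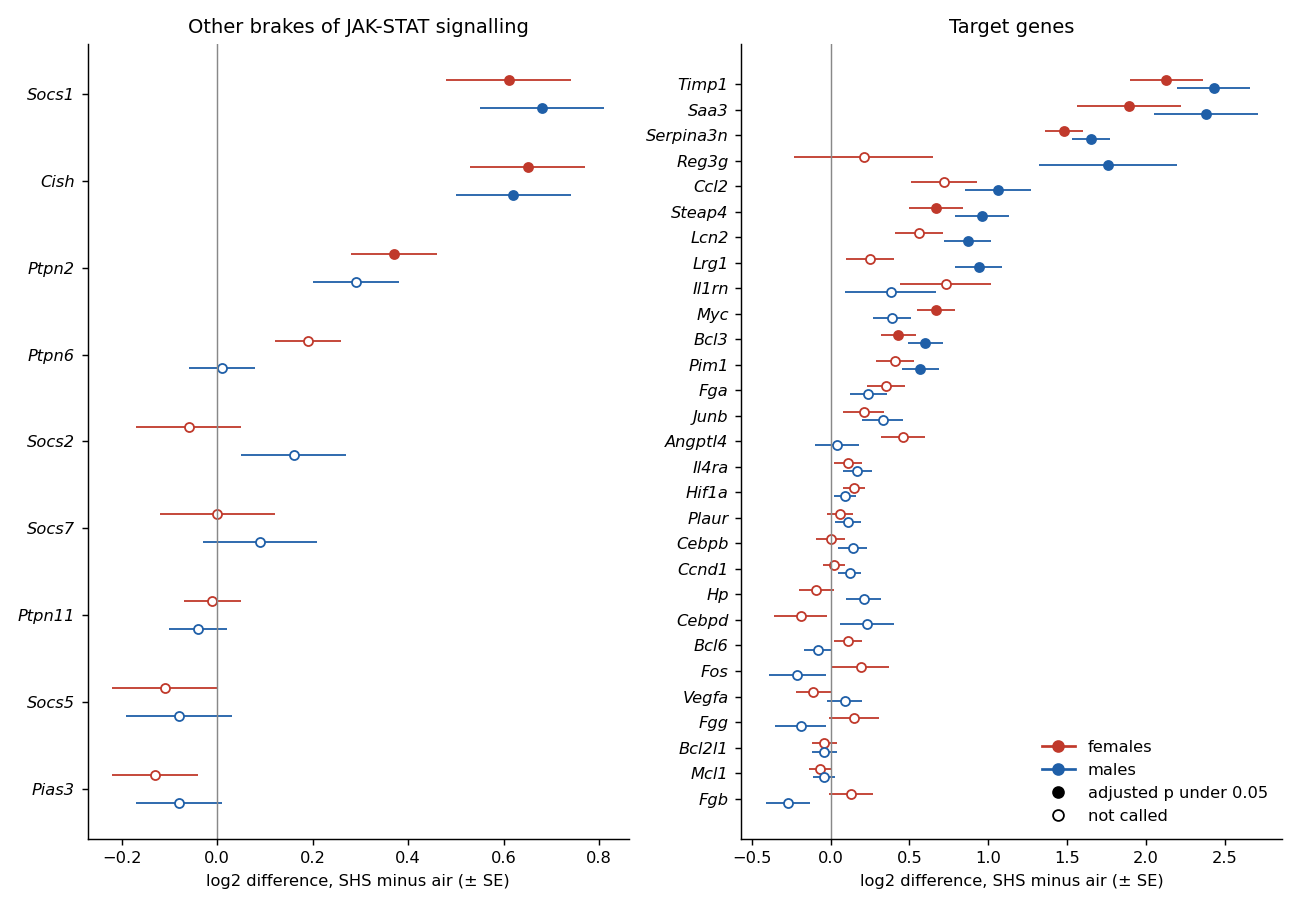
Log2 difference, SHS minus air ± SE (horizontal axis), of the 9 other brakes and the 29 target genes, females in red and males in blue, with filled points at an adjusted p under 0.05. Timp1, Saa3 and Serpina3n lie beyond 1.4 in both sexes, Reg3g lies at 1.76 in males and 0.21 in females, and most other targets lie near zero.

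The genes whose values most resembled those of Il6 over the 16 arrays, after the mean of each sex was subtracted, were Arid5a (Pearson r = 0.971), Fxyd4 (0.965) and Gadd45g (0.961). For Socs3 (1455899_x_at) they were Tmem183a (0.971), Ctps (0.968) and Mvp (0.967). Arid5a encodes an RNA-binding protein, Fxyd4 a regulator of the sodium pump, and Gadd45g a stress-response protein. These r values were picked as the highest over all other genes, and they include the difference between exposures that the arrays share. For the same genes, already picked in this way, the mean of each of the 4 groups was then subtracted instead. Their r values were 0.869, 0.84 and 0.805 for Il6 and 0.862, 0.811 and 0.843 for Socs3. Fxyd4 rose by 1.56 and 1.90 and Gadd45g by 0.51 and 0.72 in females and males (adjusted p = 0.00391, 0.000733, 0.0138 and 0.000929), and Arid5a was at 0.22 (adjusted p = 0.0967) and rose by 0.29 (adjusted p = 0.0176).

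Markers of cells that can carry or answer these signals were read beside the members. All 6 measured neutrophil markers had higher means after SHS in both sexes, with medians of 0.26 and 0.35, and within the sexes 1 of them was called, Cxcr2 in males (0.59, adjusted p = 0.0161). The mean level of the neutrophil markers ranged from 8.28 to 8.81 in air and 8.43 to 9.15 in SHS females, and from 8.38 to 8.75 in air and 8.80 to 8.96 in SHS males. Of 8 alveolar macrophage markers 1, Mrc1, was called within the sexes, higher in both (0.72 and 0.66, adjusted p = 0.0027 and 0.004), with mean levels of 9.25 to 9.70 and 9.65 to 9.77 in air and SHS females and 9.24 to 9.40 and 9.40 to 9.47 in air and SHS males. The 8 markers of monocytes and interstitial macrophages and the 4 of eosinophils gave no call in either sex, nor did the 7 of T cells, the 4 of B cells or the 6 of mast cells. Of 7 fibroblast markers, 1 was called lower in females (Tcf21, -0.56, adjusted p = 0.00315) and none in males, and of 7 endothelial markers 1 was lower in females (Tek, -0.46, adjusted p = 0.0356). Of 3 club cell markers Scgb3a2 was lower in both sexes (-0.84 and -0.65, adjusted p = 0.00692 and 0.0251), of 4 ciliated cell markers Tmem212 was lower in females (-0.41, adjusted p = 0.019), and of 6 alveolar type 2 cell markers Abca3 was lower in males (-0.23, adjusted p = 0.0485). The 5 markers each of smooth muscle, mesothelium and alveolar type 1 cells gave no call in females or males taken alone. Over all 18193 genes, 3.29% were called higher and 0.676% lower in females, and 4.17% higher and 2.47% lower in males. In the averaged effect, which holds calls of Il6 and Socs3, 2 neutrophil markers were called higher, Cxcr2 (0.42, adjusted p = 0.0077) and Csf3r (0.39, adjusted p = 0.027). Beside the marker calls of the averaged effect, 9.2% of all genes were called higher in it and 4.32% lower. The macrophage genes called higher in the averaged effect were Mrc1 (0.69) and Itgax (0.45, adjusted p = 0.0377) among the alveolar markers and the complement genes C1qa (0.38, adjusted p = 0.00952) and C1qc (0.41, adjusted p = 0.012) among those of monocytes and interstitial macrophages. Of the 8 alveolar markers 6 had higher means there, while Siglecf (-0.43, adjusted p = 0.124) and Fabp1 (-0.16, adjusted p = 0.674) had lower ones, not called. The smooth muscle genes Actg2, Acta2 and Des were called higher as well (0.56, 0.21 and 0.21). Called lower in the averaged effect were Scgb3a2 and Cyp2f2 of club cells (-0.75 and -0.38), Ccdc39 and Tmem212 of ciliated cells (-0.29 and -0.24), Pdgfra and Tcf21 of fibroblasts (both -0.29), Tek (-0.41) and Abca3 (-0.20). The part of these cells in the differences of Il6, Socs3, Stat3 and Osmr was not tested.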

How the data were processed

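Total RNA of 16 left lungs was hybridized to Affymetrix Mouse Genome 430 2.0 arrays as biotinylated cRNA, per the labels. The authors deposited 1 log2 value per probe set and array, normalized to a common scale. How probes were summarised is not stated in the labels, the processing notes of the submitters list limma and no role for it, and the base of the logarithm was taken from the values (2.58 to 15.2). No detection calls were used, and the number of arrays limits the precision.

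The 64 control probe sets of 45101 were left out. Of the other 45037, 34945 had 1 symbol in the platform annotation, 932 several and 9160 none, and 34741 were matched to RefSeq genes (GRCm38.p6). Group means were fitted with limma 3.58.1 in R 4.3.3 over all 16 arrays (12 residual and 5.556 prior degrees of freedom), with Benjamini-Hochberg adjustment across 45037 probe sets. SHS was compared with air within females, within males and as the average of both, and the female effect was compared with the male one. Errors are standard errors of the model. The steps were tested on simulated data. Members and lists were chosen with earlier results of these data known. Named genes were all member probe sets, up to 4 called genes with the largest difference per pathway list and sex, Jak1, Jak2, Lifr, Socs1 and Timp1, and the 3 genes most like each member called in the averaged effect. Of the 61 listed pathway genes, 7 are not analysed here. Promoter windows were searched over the 250 bases before the start site, without the 50 transcribed bases that the planned window included. Alternatives were 2 other normalizations, leaving out probe sets whose mean was under the 40th percentile, the replicate block, the arrays of a comparison alone, a trended robust prior, a 1.5-fold minimum, the mean of a gene's probe sets and each array left out. Figures were drawn with matplotlib 3.10.9.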

Additional observations from a re-analysis of the deposited data

Results flagged for a closer look

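Among 84 sets of 4 values (21 probe sets in 4 groups), 4 held an array far from the other 3 of its group by Dixon's criterion, which chance gives for about 1 group in 20. Socs3 on 1455899_x_at was 11.00 in SHS male 3, against 10.68 to 10.69 in the other SHS males. Il6st read 11.61 on 1452843_at in air male 3, against 11.79 to 11.82, and 8.72 on 1460295_s_at in SHS male 4, against 8.92 to 8.96. Lif read 6.14 on 1421207_at in air female 1, against 6.32 to 6.34.

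Osmr on 1418674_at lay below the air mean in all 4 SHS females and above it in all 4 SHS males. The female difference was -0.12 and was not called (adjusted p = 0.347 in limma), and the male difference was 0.27 (adjusted p = 0.0153). The difference between the sexes, -0.39, was tested and did not pass the adjustment over all probe sets (adjusted p = 0.383 in limma).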

How the results depend on the processing

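In females, where 2 member probe sets were called, none was called with the 8 female arrays alone in limma (5 at an unadjusted p under 0.05) and 1 with a 1.5-fold minimum. With each array left out the female count ranged from 0 to 4. It was 0 without air female 2 or SHS female 1, 2 or 3, 1 without air female 1 or 3, and 4 without SHS female 4. The shares of all probe sets called in these fits are not given here, so the changes cannot be read as particular to the members. The 9 pathway genes called in females became 5 with the 8 arrays alone, and 5 (without air female 2, SHS female 1 or SHS female 2) to 15 (without SHS female 4) with an array left out. The other counts stayed within 1.5 times. The member count in males ranged from 4 to 7 with an array left out. Il6 lies below the filter at 6.377, which left it out, so that alternative gives no value for it. Of 2656 values of single probe sets under an alternative, 76 lost and 42 gained a call, none with a call changed sign, and 49 that were never called did. The arrays showed no clear pairing by replicate number, though so few values cannot exclude one. Same-numbered deviations from the group means correlated at -0.08 to 0.267, and for 4 of 8 numbers the closest array of the other exposure carried the same number. With the replicate block, 2 member probe sets were called in females, 6 in males and 4 in the averaged effect, and 8 and 13 pathway genes, with Bcl3 lost in females (adjusted p = 0.0694) and Myc gained in males (0.0334). With quantile normalization the share of higher calls among all probe sets in females was 70.6% in place of 82.0%.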
